A study of Mus musculus with 2 samples.

Results

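Mir203, Mir205 and Mir31 are 3 microRNA (miRNA) genes of epithelial cells, picked by name from the 1973 miRNA gene rows counted in newborn mouse intestine. Each has 1 row in both libraries, and all 3 reached the minimum of 10 counts in each library that defines a detected gene here, as did 314 of the 1973 rows. Each sample was the intestine, with no segment named, of 1 of 2 B6NCrl pups on postnatal day 0, and a single pregnant female carried both. No treatment or altered allele is named for either animal, and sex was not collected. MicroRNA sequencing of total RNA, with a labelled size range below 30, gave 1 library per pup, called pup 1 and pup 2.

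Both libraries placed 55.9% to 56.0% of their reads on the annotated strand of miRNA genes, which is 3567658 counts in pup 1 and 4683939 in pup 2. A level in CPM is a gene's count for every 1000000 of these, and every ± is the SD over the 2 pups. Intervals in brackets are exact 95% intervals (Clopper-Pearson for levels and shares) and cover nothing beyond the counting error of reads. They leave out differences between animals and library preparations. Without molecular identifiers several reads can stem from 1 molecule, which they leave out too. The series holds 1 group, so it compares no conditions. The gut epithelium list (Mir192, Mir215, Mir194-1 and Mir194-2) checked the labelled tissue, and took 19.7% of counts in pup 1 and 23.7% in pup 2.

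A miRNA gene makes a hairpin RNA that is cut into short mature arms, named 5p and 3p. The arm held by an Argonaute protein finds target mRNAs mainly through its seed, bases 2 to 8, and lowers their translation and stability. MiR-203 is best known from skin, where it represses the progenitor factor p63 as keratinocytes leave the basal layer. MiR-205 is known from basal and progenitor cells of stratified and glandular epithelia and, like the miR-200 family, represses the transcription factors Zeb1 and Zeb2. MiR-31 is known from keratinocytes and from stem and progenitor cells of the intestinal crypt.

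The mature arms come first because none of them shares its seed with another gene. They are given 5′ to 3′ with the seed in capitals, from RefSeq on GRCm38.p6, where all 3 genes matched by symbol.
miR-203-5p: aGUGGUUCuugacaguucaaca
miR-203-3p: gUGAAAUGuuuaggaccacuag
miR-205-5p: uCCUUCAUuccaccggagucug
miR-205-3p: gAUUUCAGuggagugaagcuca
miR-31-5p: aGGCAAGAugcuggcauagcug
miR-31-3p: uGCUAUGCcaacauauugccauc

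No other gene in the RefSeq table had any of these 6 seeds. Among the 534 arms of detected genes in that table, 41.8% shared their seed with an arm of another gene. The 3 genes therefore form no seed family with each other or with the miR-200 family. The deposited counts are per hairpin, so the 5p and 3p arms of a gene were not counted apart.

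The hairpins show how far each gene can be told from the other hairpins of the RefSeq table. In each, the capitals mark the mature arms.
Mir203: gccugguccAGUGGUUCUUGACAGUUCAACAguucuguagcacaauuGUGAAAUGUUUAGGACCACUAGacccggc
Mir205: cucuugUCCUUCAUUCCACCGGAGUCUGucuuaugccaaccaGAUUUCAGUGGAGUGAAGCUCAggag
Mir31: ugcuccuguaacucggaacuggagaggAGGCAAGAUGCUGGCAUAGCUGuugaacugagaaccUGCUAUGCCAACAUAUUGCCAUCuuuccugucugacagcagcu

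No gene was credited with reads that mapped to more than 1 place, 30.3% of reads in pup 1 and 29.8% in pup 2, so a miRNA with near-identical copies is undercounted. The longest run of bases shared with a RefSeq hairpin at any other locus, on either strand, was 11 for Mir203, 14 for Mir205 and 12 for Mir31. The rest of the genome was not searched. All 3 runs were shorter than a mature arm, which has 22 or 23 bases here. Over the 276 detected genes with a hairpin in the table, the median run was 13, and 23.6% had a run of at least 18. The predicted folding energy was -35.1 kcal/mol for Mir203, -33.8 for Mir205 and -48.7 for Mir31, against a median of -37.2 over those 276. Per base, 34.4% of the 276 hairpins were predicted to be more stable than Mir203, 20.7% more stable than Mir205 and 35.5% more stable than Mir31. GC content was 48.7%, 50.0% and 50.0%, beside a median of 50.0%.

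All 3 genes stand alone among the miRNA genes of GENCODE M21 on GRCm38, although RefSeq places a further miRNA gene, described last, opposite Mir203. Mir203 (ENSMUSG00000065574) lies at chr12:112130880-112130955 on the plus strand, in no annotated host gene. Its coding neighbours are Aspg, 3320 bp away at lower coordinates, and Kif26a, 15252 bp away at higher ones. Mir205 (ENSMUSG00000065533) lies at chr1:193507463-193507530 on the minus strand, in an exon of the long non-coding RNA gene 4631405K08Rik, which has 1 annotated transcript. Mir31 (ENSMUSG00000065408) lies at chr4:88910557-88910662 on the minus strand, in an exon of the long non-coding RNA gene AL805899.1, also with 1 transcript. Its nearest coding gene is Ifne, an interferon gene, 30355 bp away.

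The nearest other miRNA gene of GENCODE M21 was 21557 bp from Mir203, 788431 bp from Mir31 and 1314470 bp from Mir205. That neighbour of Mir203, Mir3073a, had 15 and 19 counts. By that annotation none of the 3 genes had another miRNA gene within 10 kb, while 161 of 314 detected genes did (51.3%). Of the 13 genes in the other epithelial lists, 12 had one. Those lists are the gut epithelium list, the miR-200 family (Mir200a, Mir200b, Mir200c, Mir141 and Mir429) and a list of secretory and sensory epithelium (Mir375, Mir182, Mir183 and Mir96).

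Mir203 was the highest of the 3 genes in both pups. It had 39557 counts in pup 1 and 55891 in pup 2. These are 11088 CPM in pup 1 (10979 to 11197) and 11932 CPM in pup 2 (11834 to 12031), with a mean of 11510 ± 597. It was rank 20 in each pup and rank 19 by mean CPM, so 93.9% of detected genes lay below it. Its mean was 79.4-fold the median of detected genes, which was 145 CPM. Ranks and this median include genes with near-identical copies, which are undercounted because multi-mapped reads were left out. They may therefore place the 3 genes too high, by an amount that was not measured.

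Mir31 followed, with 25440 counts in pup 1 and 36180 in pup 2. Its level was 7131 CPM in pup 1 (7044 to 7219) and 7724 CPM in pup 2 (7645 to 7804), a mean of 7428 ± 420. It was rank 29 in pup 1, rank 26 in pup 2 and rank 28 by mean. The 2 pups of Mir31 lay below both pups of Mir203, with no overlap.

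Mir205 was far lower but well above the detection minimum. It had 1975 counts in pup 1 and 2310 in pup 2. Its level was 554 CPM in pup 1 (529 to 579) and 493 CPM in pup 2 (473 to 514), a mean of 523 ± 42.7. It was rank 100 and 102 in the pups and 101 by mean, and 67.8% of detected genes lay below it. Unlike the other two, it had the lower CPM in pup 2.

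Together the 3 genes took 1.88% of counts in pup 1 (1.86 to 1.89) and 2.01% in pup 2 (2.00 to 2.03). Mir203 made up 59.1% of that sum in pup 1 and 59.2% in pup 2. Mir31 made up 38.0% and 38.3%, and Mir205 2.95% and 2.45%. In these bulk samples, fewer cells of a type and less RNA per cell cannot be told apart.

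**Figure D1:**
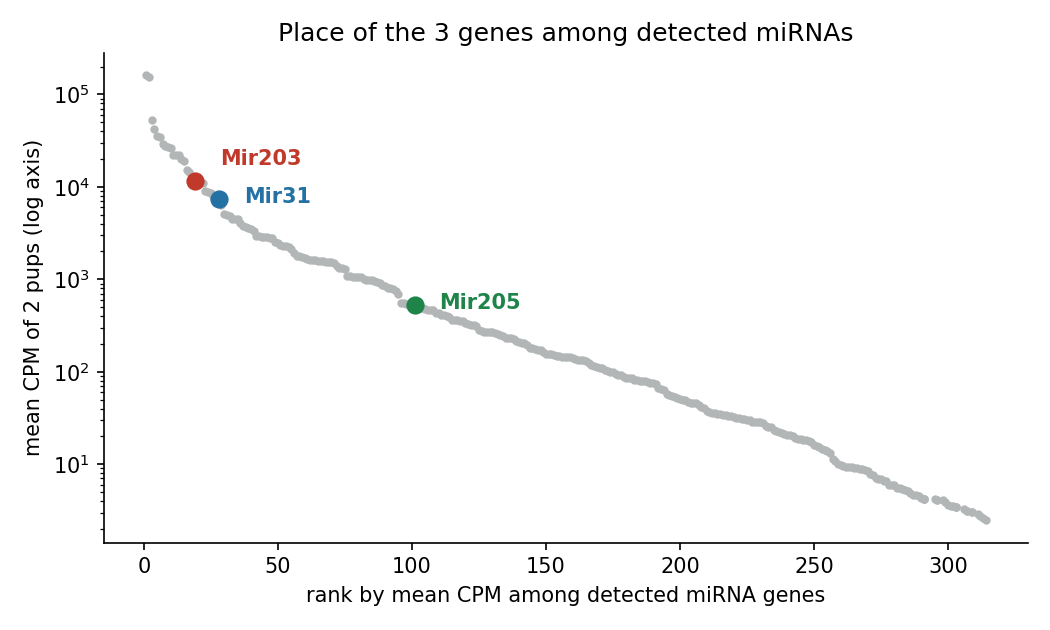
Mean CPM over the 2 pups (log axis) against rank for the 314 detected miRNA genes, 1 point per gene, with Mir203, Mir31 and Mir205 coloured. Mir203 (rank 19) and Mir31 (rank 28) sit on the steep left end of the curve and Mir205 (rank 101) on its flatter part.

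Several genes of other kinds had levels that the pups do not separate from these. Beside Mir203, the pups' ranges overlapped for Mir30e (10223 and 13539 CPM), for Mir194-2 of gut epithelium (10435 and 12532 CPM) and for the endocrine-cell miRNA Mir375 (11352 and 11229 CPM). Mir23b, the other of the 2 genes above it, did not overlap, with 14832 and 13836 CPM. Beside Mir31, the ranges of Mir322, Mir17 and Mir411 overlapped with its own, and that of Mir30a, with 4451 and 5664 CPM, did not. All 4 neighbours of Mir205 (Mir301, Mir467d, Mir320 and Mir134) overlapped with it, with means from 495 to 536 CPM. The measure of likeness was the log2 ratio of mean CPM, which ran from -0.55 to 0.32 over the 12 neighbours. With 2 libraries, likeness in level is all that can be described.

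Among 16 epithelial genes, the 3 members and the 13 of the other lists, Mir203 was 7th, Mir31 was 10th and Mir205 was last in mean CPM. The highest, Mir215, was 12.5-fold above Mir203 in pup 1 and 14.3-fold in pup 2. Mir203 did not separate from Mir194-2 and Mir375, the next 2 in that order, beyond the range of the pups. Mir31 lay below Mir375 and above Mir141 without overlap, and Mir205 lay below Mir96, a miRNA of sensory cells, without overlap. Mir31 was 2.60-fold and 2.55-fold above Mir200a, the lowest gene of the miR-200 family. The 3 members took 5.82% of the counts of the 16 genes in pup 1 and 5.42% in pup 2.

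**Figure D2:**
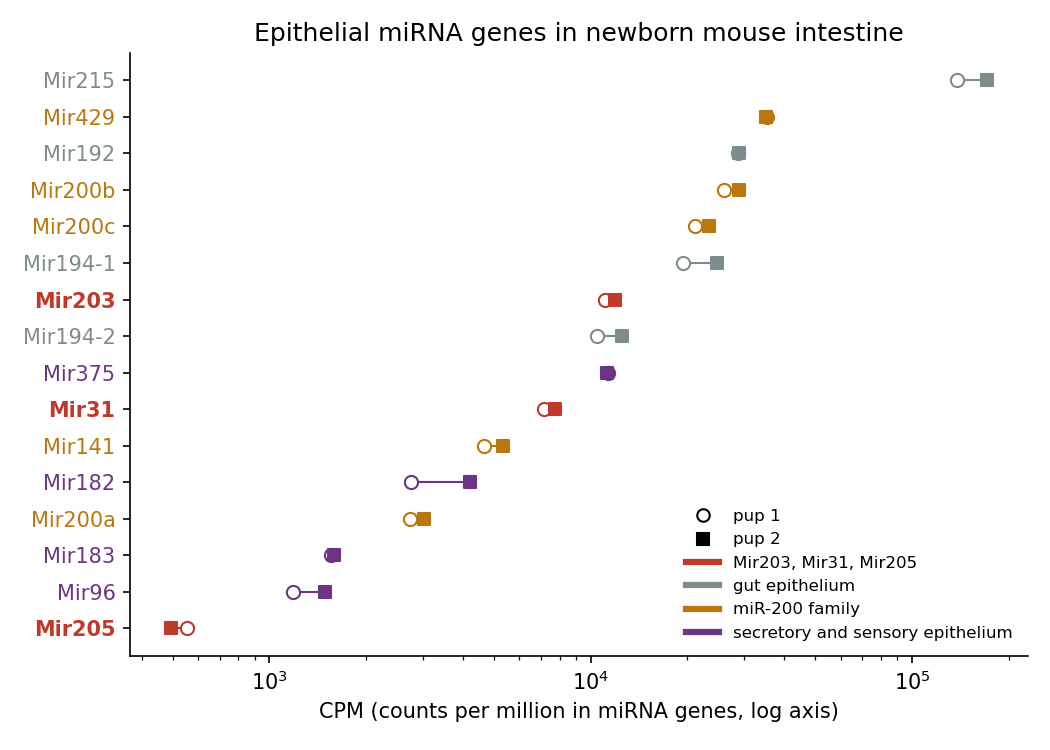
CPM of the 16 epithelial miRNA genes (log axis), ordered by mean, with pup 1 as open circles and pup 2 as filled squares. Mir203 lies beside Mir194-2 and Mir375, Mir31 just below them, and Mir205, at 554 and 493 CPM, under every other gene plotted.

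Ratios taken within a library need no scaling between libraries, and they separated Mir205 from the other two. Mir203 exceeded Mir31 by a log2 ratio of 0.64 (0.61 to 0.66, exact binomial) in pup 1 and 0.63 (0.61 to 0.65) in pup 2, which is 1.55-fold and 1.54-fold. The intervals of the pups overlapped. Mir203 exceeded Mir205 by 4.32 (4.26 to 4.39) in pup 1 and 4.60 (4.54 to 4.66) in pup 2, which is 20.0-fold and 24.2-fold. Mir31 exceeded Mir205 by 3.69 (3.62 to 3.75) and 3.97 (3.91 to 4.03), or 12.9-fold and 15.7-fold. For both ratios to Mir205, the intervals of the pups did not overlap.

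How well small RNA capture takes up each sequence also enters such ratios and was not measured. Reads of mature arms have nearly the same length, so levels were compared per gene. Per 100 bases of hairpin, Mir203 had 15145 CPM, Mir31 had 7007 and Mir205 had 770, in the same order.

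The summed miR-200 family, epithelial miRNAs that share targets with Mir205, kept nearly the same ratio to 2 of the 3 genes in both pups. The summed counts of that family were 8.12-fold those of Mir203 in pup 1 and 8.03-fold in pup 2. For Mir31 the ratios were 12.6-fold and 12.4-fold. For Mir205 they were 163-fold in pup 1 and 194-fold in pup 2. On the log2 scale the ratio moved from pup 1 to pup 2 by -0.02 for Mir203, by -0.02 for Mir31 and by 0.26 for Mir205. Single genes of the family differed from the sum: Mir429, the highest, was 3.19-fold above Mir203 in pup 1 and 2.95-fold in pup 2. The secretory and sensory list also kept nearly the same ratio to Mir203 (1.52-fold and 1.55-fold) and to Mir31 (2.36-fold and 2.40-fold). Against Mir205 it moved from 30.4-fold to 37.5-fold. The gut epithelium list moved against all 3: it was 17.7-fold and 19.9-fold above Mir203, 27.6-fold and 30.7-fold above Mir31, and 355-fold and 481-fold above Mir205. Within that list Mir192 moved the other way against Mir203, at 2.60-fold above it in pup 1 and 2.43-fold in pup 2. Against Mir205, Mir192 moved as the list did: it had 28827 and 28960 CPM, where Mir205 had 554 and 493.

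Between the pups, scaled by TMM (a trimmed mean of gene ratios), Mir203 and Mir31 were higher and Mir205 lower in pup 2. The log2 ratio, pup 2 over pup 1, was 0.15 for Mir203 (0.13 to 0.17; adjusted p = 1.13e-54, exact binomial test). It was 0.16 for Mir31 (0.13 to 0.18; adjusted p = 3.91e-40, exact binomial) and -0.12 for Mir205 (-0.21 to -0.04; adjusted p = 0.0152, exact binomial). The test was 2-sided, with Benjamini-Hochberg adjustment over the 314 genes and a threshold of 0.05. It compares the libraries of 2 animals against counting noise, with no replicate of either. All 3 genes passed, where 41.1% of the 314 genes did. The 2 genes called higher stand beside 21.3% of all genes called higher, and the 1 called lower beside 19.7%. This test reaches smaller ratios in genes with more counts. When only genes with at least 100 counts in each library were tested, 126 of 227 passed, 69 higher and 57 lower.

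The sizes of these differences were ordinary for the libraries. Of the 314 genes, 57.6% had a larger absolute log2 ratio than Mir203, 56.4% than Mir31 and 63.4% than Mir205. The median log2 ratio of the 3 was 0.15, and that of all tested genes 0.00, with a median absolute ratio of 0.18. The 314 include many genes with few counts. Among the 227 genes with at least 100 counts in each library, the median absolute ratio was 0.152. With that minimum Mir203 was at 0.156 and Mir31 at 0.165, slightly above the median, and Mir205 was at -0.117. Against the spread between the pups over all genes, a common coefficient of variation of 18.4%, edgeR's exact test called 0 of the 3, with unadjusted p = 0.693 for Mir203, 0.675 for Mir31 and 0.745 for Mir205. It called 2 genes of 314 (0.637%), both lower in pup 2, and 6 had an unadjusted p under 0.05. That spread was estimated from the same differences between the pups, so this says only where the 3 genes lie within it and does not show that they are equal. The largest of those differences were in Mir196b (7337 and 310 counts, log2 ratio -4.91) and Mir196a-2 (272 and 35 counts, -3.31). What set the pups apart in these genes was not tested.

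**Figure D3:**
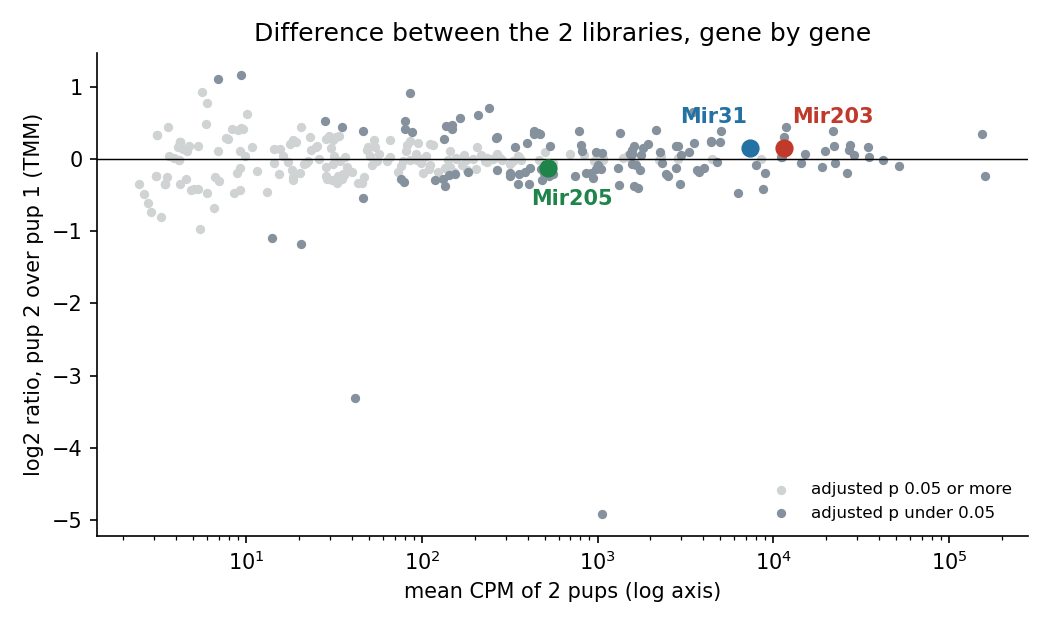
Log2 ratio of pup 2 over pup 1 after TMM scaling against mean CPM (log axis) for the 314 detected genes, darker where the exact binomial test gave an adjusted p under 0.05. Mir203 (0.15), Mir31 (0.16) and Mir205 (-0.12) lie within the band of the other genes.

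The direction for Mir203 and Mir31 depended on what they were scaled to. With DESeq2 size factors, total counts or upper quartiles, Mir203 was called higher in pup 2 by a log2 ratio of 0.11 to 0.19 and Mir31 by 0.12 to 0.20. In these, 41.1%, 40.4% and 41.4% of all genes were called, and 21.3%, 16.9% and 26.8% were called higher. Scaled to the summed counts of the other 13 epithelial genes, an alternative chosen after the data were seen, both turned lower, at -0.11 for Mir203 and -0.10 for Mir31. That scaling called 60.2% of all genes, 6.05% higher and 54.1% lower. Mir215 held 42.8% of the counts of the 16 genes in pup 1 and 46.0% in pup 2, and so weighs most in it. Mir205 was lower in pup 2 under all 5 scalings, from -0.38 to -0.08, and with upper quartiles did not pass (adjusted p = 0.131, exact binomial).

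Genes of other lists also differed between the 2 libraries. All 13 genes of the 3 other epithelial lists were called higher in pup 2 by the exact binomial test with TMM scaling, beside 21.3% of all genes, although Mir429 and Mir375 had the lower CPM there. The share over all genes includes many with few counts, where the test reaches only large ratios. The lowest of the 13 in mean CPM, Mir96, was rank 73 of 314. Of the 227 genes with at least 100 counts in each library, 69 were called higher. The edgeR test at the common dispersion called 0 of all 314 genes higher. Of the 2 smooth muscle genes 1, Mir143, was called lower by the exact binomial test, and Mir145a did not pass it (adjusted p = 0.905), at 4550 and 4429 CPM. Their sum, nearly all Mir143, took 18.1% of counts in pup 1 and 15.0% in pup 2, and endothelial Mir126a took 5.46% and 4.98%. Their part in the differences of Mir203, Mir31 and Mir205 was not tested.

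Markers of liver, pancreas, and eye surface and pigment cells had few counts in either pup. The comparison lists held none for skin, oesophagus or stomach, so these were not checked. Liver Mir122 had 103 and 58 counts, the pancreas genes Mir216a, Mir216b and Mir217 summed to 2 and 5, and Mir184 and Mir211 of eye surface and pigment cells to 38 and 44. In the erythroid list Mir451a had 215 and 515 counts and Mir144 142 and 167. Nerve cells are part of the gut wall: of that list, Mir137 had 3820 and 4841 counts, more than Mir205, and Mir124a-1 had 0 in both.

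**Figure D4:**
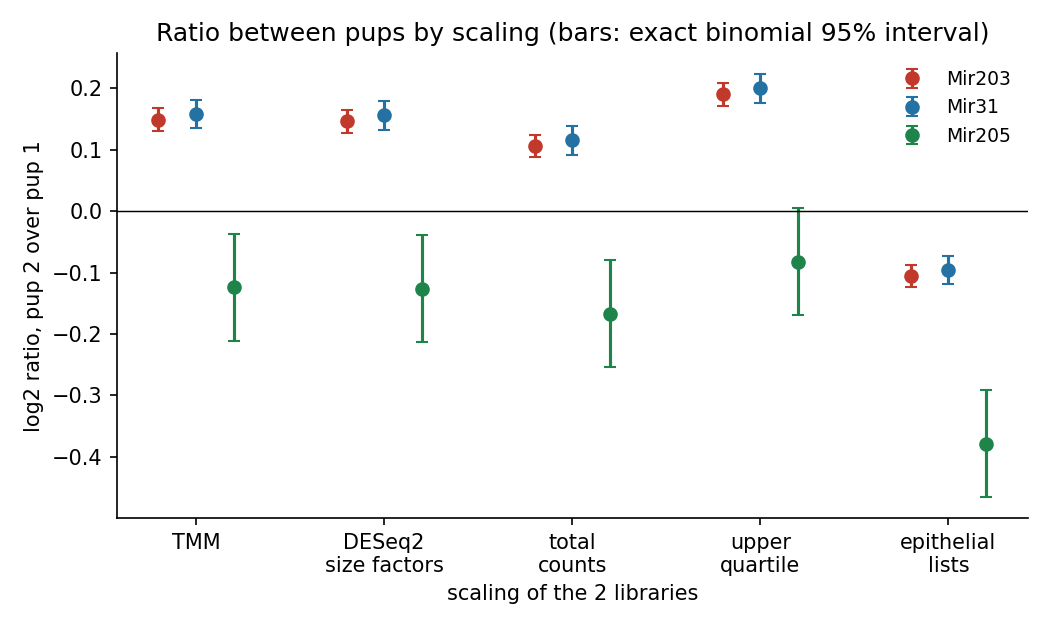
Log2 ratio of pup 2 over pup 1 for Mir203, Mir31 and Mir205 under 5 scalings of the libraries, with exact binomial 95% intervals as bars. A scaling shifts all 3 genes by the same amount, so the plot shows where 0 falls: Mir203 and Mir31 lie above it except with the epithelial lists, and Mir205 lies below it in all 5.

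Mir203 also had reads on the strand opposite to its annotation, and the other two genes had almost none. It had 234 opposite-strand counts in pup 1 and 324 in pup 2. These were 0.588% of the reads of the row in pup 1 (0.515 to 0.668) and 0.576% in pup 2 (0.515 to 0.642), a share that the intervals do not separate between the pups. Mir205 had 0 opposite-strand counts in both pups, which allows up to 0.152% and 0.130% of its reads at a floor of 3 counts. Mir31 had 0 and 1, under that floor.

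Among the 314 detected genes, Mir203 had the most opposite-strand counts in both pups, and 290 of the 314 had 0 in both. That place holds for detected genes only, since detection rested on the annotated strand. Over all 1973 rows, opposite-strand counts were 126262 in pup 1 and 161133 in pup 2. Of 14 rows with at least 10 of them in each library, 10 fell below the detection minimum. All 10 face another gene of GENCODE M21. Besides Mir203, only 4 detected genes exceeded 3 opposite-strand counts in both pups: Mir3074-1, Mir126a, Mir3073a and Mir200a, named for this after the values were seen. The first 3 of these face another miRNA gene of GENCODE M21 on the opposite strand. Mir200a, with 4 and 5 counts, and Mir203 face none there.

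RefSeq does list a miRNA gene facing Mir203, under the symbol Gm51289, at chr12:112130887-112130946 on the minus strand of GRCm38.p6. Its 2 mature arms are shown because they lie opposite both arms of miR-203, with the seed in capitals.
miR-203b-3p: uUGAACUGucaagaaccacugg
miR-203b-5p: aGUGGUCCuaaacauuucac

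MiR-203b-3p overlaps miR-203-5p by 20 bases and miR-203b-5p overlaps miR-203-3p by 20, with all 20 complementary in each case, as the strands of 1 locus must be. Read from its own 5′ end, miR-203b-3p is also close to miR-203-3p, with the same base at 16 of 22 positions. Counted from 1 at the 5′ end of miR-203-3p, the seeds differ by the single change A6C. Within the hairpin of Mir203, the best ungapped match of miR-203b-3p left 6 mismatches and that of miR-203b-5p left 5. The counts are per row and strand, so they do not tell which bases the opposite-strand reads cover. At 65.6 CPM in pup 1 and 69.2 CPM in pup 2, these reads were fewer than those of Mir205.

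**Figure D5:**
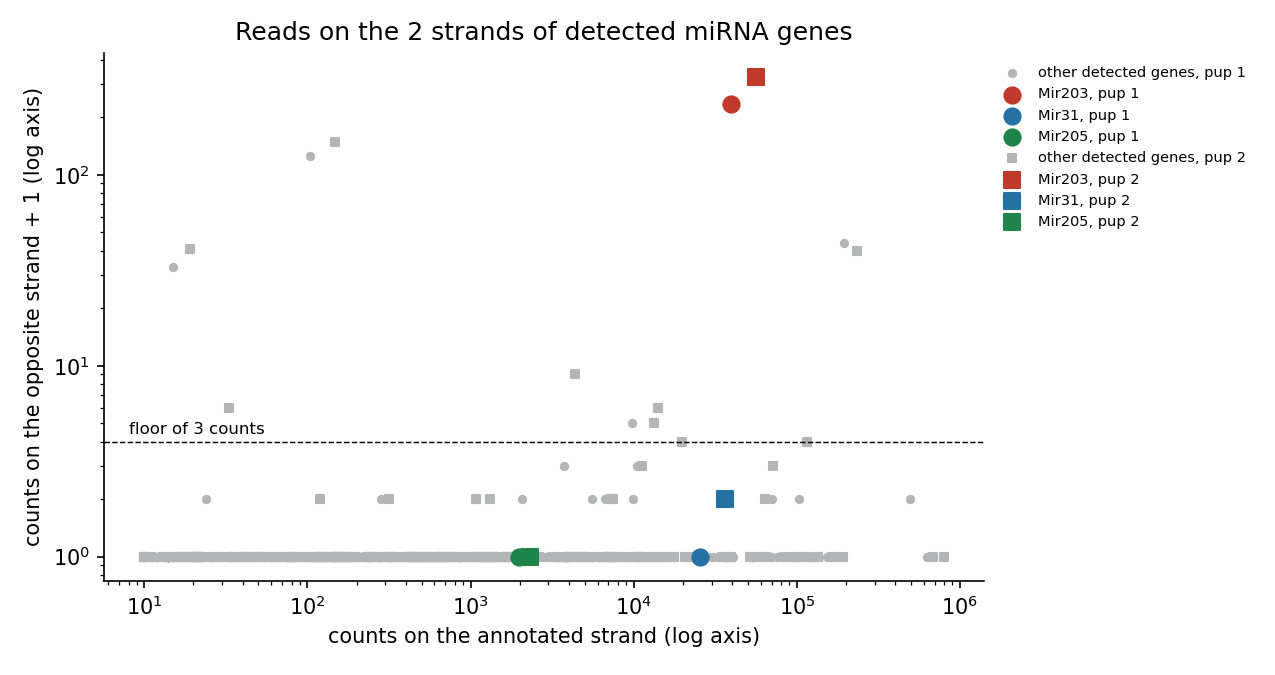
Counts on the opposite strand plus 1 against counts on the annotated strand (both log axes) for the 314 detected genes, with circles for pup 1 and squares for pup 2. Mir203, with 234 and 324 opposite-strand counts, lies above every other point, and Mir31 and Mir205 lie below the dashed floor of 3 counts.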

How the data were processed

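The authors deposited raw read counts per miRNA gene for 2 libraries, made on mm10 with GENCODE M4, per the text deposited with them. The aligner and counter are not given in the sources used here. Counts were deposited per library for either strand, the annotated strand and the opposite strand, identified from their sums. Totals of unmapped, multi-mapped and unassigned reads (4 rows) stayed out of library sizes and tests: unmapped reads were 9.35% and 10.1% of reads, and reads outside miRNA genes 2.41% and 2.23%. Of 1973 rows, 1894 took symbols and coordinates from GENCODE M21 by identifier, and the other 79 held 0 counts.

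The pups were compared by an exact binomial test, with the expected share of counts set by TMM-scaled library sizes (edgeR 4.0.16 in R 4.3.3). It was run on simulated data that held counting noise and no spread between animals, so that run checks the code and not the test's fitness for 2 animals. DESeq2 1.42.0 gave alternative size factors, and edgeR's exact test at the common dispersion an alternative test. Python 3.11.15 with scipy 1.17.1 gave intervals, and RNAfold 2.7.2 folding energies. A count of 0 allows 3 counts, 0.841 CPM in pup 1 and 0.640 in pup 2.

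The 3 genes were named by the request. Comparison lists and rules (2 neighbours in level on each side, the nearest miRNA gene, shared seeds) were chosen with earlier results of these data known. Alternatives were other scalings, count minimums (1 and 100), denominators, strand, hairpin length, a fold threshold of 1.5 and each pup alone.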

Additional observations from a re-analysis of the deposited data

Results flagged for a closer look

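Reads on the strand opposite to the annotation of Mir203 lay outside the main measurement, which used the annotated strand, and exceeded the limit of 3 counts that a count of 0 allows. There were 234 such counts in pup 1 and 324 in pup 2. The mean share was 0.582% ± 0.00828 of the reads of the row (SD, n = 2).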

How the results depend on the processing

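Over each pup alone, Mir203 ran from 11088 to 11932 CPM at rank 20, Mir31 from 7131 to 7724 CPM at ranks 26 to 29 and Mir205 from 493 to 554 CPM at ranks 100 to 102. The log2 ratio of Mir203 to Mir31 ran from 0.63 to 0.64, of Mir203 to Mir205 from 4.32 to 4.60 and of Mir31 to Mir205 from 3.69 to 3.97, and the summed share from 1.88% to 2.01% of all counts and from 5.42% to 5.82% of the 16 epithelial genes. With all reads as the denominator, the levels were 6440 CPM for Mir203, 4155 for Mir31 and 293 for Mir205, and the share 1.09%. Without Mir143 and Mir215 in the denominator they were 16820, 10854 and 765 CPM, and 2.84%. Without Mir215, the share of the epithelial genes was 10.1%. Per 100 bases of hairpin they were 15145, 7007 and 770 CPM, with Mir203 at rank 20, Mir205 at rank 96, and log2 ratios of 1.11 for Mir203 to Mir31 and 3.19 for Mir31 to Mir205. With strand ignored, Mir203 was at rank 20, Mir205 at rank 109, and the ratio of Mir203 to Mir31 was 0.64.

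Between the pups, a threshold of 1.5-fold ended all 3 calls, since the ratios were 0.15, 0.16 and -0.12, and left 10 genes called of 129. The edgeR exact test at the common dispersion ended them too and called 2 genes; it counts the spread between the pups as error. Upper-quartile scaling ended the call of Mir205, with a log2 ratio of -0.082. Scaling to the epithelial lists turned Mir203 to -0.11 and Mir31 to -0.10, and called 189 genes. The split of all calls into higher and lower was 67 to 62 with TMM, 53 to 74 with total counts, 84 to 46 with upper quartiles and 19 to 170 with the epithelial lists. No paired analysis was possible because the series has 1 group. Depth limits Mir205 most of the 3 genes, since it has the fewest counts.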
